A study of Mus musculus with 5 samples.

Results

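The HoxB genes are the 10 homeobox genes of the HoxB cluster on mouse chromosome 11, Hoxb1 to Hoxb9 and Hoxb13. They were picked by symbol, through the RefSeq accession that the array annotation gives each probe. All 10 were found, with 11 probes printed in 20 spots, among 19897 genes that had a probe naming 1 gene. Hoxb3 had 2 probes, the Hoxb1 probe was printed in 10 spots, and each of the others had 1 spot.

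RNA was measured on 5 one-colour Agilent arrays along the differentiation of embryonic stem (ES) cells into spinal motor neurons, with 1 array per time point. All samples were wild type, male mouse material. ES is the undifferentiated culture without retinoic acid (RA), Day2 is embryoid bodies (floating aggregates of differentiating cells) after 8 h of RA, Day3 and Day4 are the same kind of aggregates at 1 and 2 days of RA, and Day7 is the culture labelled as motor neurons, at 5 days. The treatment note in the labels names RA with Shh between day 2 and day 5, while the study's methods use a smoothened agonist, SAG, to switch on the Shh pathway. No embryoid bodies without RA were analysed here, so the agents, the aggregation and the elapsed time cannot be told apart. The samples are whole cultures, in which fewer cells of a type and less RNA per cell cannot be told apart either.

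Levels are log2 of the scanner's processed signal after quantile normalization, which gives the 5 arrays the same distribution of values. A probe counts as detected where the scanner software called it well above background. An undetected probe was set no lower than the dimmest detected probe of its array (the floor, which from ES to Day7 was 5.01, 2.66, 5.22, 4.27 and 4.66), and a fold against it is written as "at least". Such a bound holds for this floor and this normalization and moves with either. Single arrays have no replicate spread, so no p-values are given and genes were sorted by a rule of size, a 2-fold change. The number of arrays limits the precision. The spread between the 10 spots of the Hoxb1 probe, 0.04 to 0.14 log2 units on the 4 arrays that detected it, covers error within an array only, as does the error that the scanner software gives a spot, at most 20.9% of the signal over the members' detected readings. No member was saturated.

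Hox genes encode homeodomain transcription factors that give cells their position along the head to tail axis. In each cluster the genes are read in 1 direction, and those at the 3' end switch on earlier and farther forward than those at the 5' end, an order called collinearity. RA opens and activates the 3' genes through receptor binding sites in and around the clusters, while Cdx factors act on the central genes. In the hindbrain and cervical spinal cord the Hox proteins, with Pbx and Meis partners, set which kind of neuron forms at which level.

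The RefSeq promoter table held 3 of the 10 members, each as 300 bases from 250 before to 50 after the annotated start, on the plus strand of GRCm38.p6. All 3 are shown. Hoxb1 and Hoxb4 were among the genes already high on Day2, and Hoxb8 reached its main level on Day3. The windows are chr11:96365508-96365807 for Hoxb1, chr11:96318017-96318316 for Hoxb4 and chr11:96281655-96281954 for Hoxb8. Capitals mark matches, on either strand, to TGATNNAT, a form of the site that Hox and Pbx proteins bind together, or to AGGTCA, the half-site of retinoic acid receptors.
Hoxb1: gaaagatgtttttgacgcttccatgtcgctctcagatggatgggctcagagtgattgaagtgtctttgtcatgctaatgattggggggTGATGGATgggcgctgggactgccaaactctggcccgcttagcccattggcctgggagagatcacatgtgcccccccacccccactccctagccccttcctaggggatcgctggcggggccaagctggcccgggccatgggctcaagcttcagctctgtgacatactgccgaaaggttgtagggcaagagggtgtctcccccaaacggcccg
Hoxb4: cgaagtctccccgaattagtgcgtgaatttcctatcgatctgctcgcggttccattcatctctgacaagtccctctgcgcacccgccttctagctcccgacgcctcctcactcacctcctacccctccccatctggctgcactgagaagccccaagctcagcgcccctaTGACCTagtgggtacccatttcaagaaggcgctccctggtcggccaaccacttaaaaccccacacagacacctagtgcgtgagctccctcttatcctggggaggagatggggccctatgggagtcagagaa
Hoxb8: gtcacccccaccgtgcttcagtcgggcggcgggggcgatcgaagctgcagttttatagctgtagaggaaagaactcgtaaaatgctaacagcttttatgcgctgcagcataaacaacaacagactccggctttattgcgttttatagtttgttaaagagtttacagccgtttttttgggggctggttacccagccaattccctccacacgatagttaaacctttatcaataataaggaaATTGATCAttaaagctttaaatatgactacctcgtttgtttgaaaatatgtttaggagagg
The Hoxb1 window had 1 match to TGATNNAT, TGATGGAT at -162 from the start, and the Hoxb8 window had 1 on the other strand, at -11. The Hoxb4 window had none of these but 1 AGGTCA on the other strand, at -81. Over all 32851 promoters of this length, 8.85% held TGATNNAT and 16.3% held AGGTCA, so each match is a common one. Of the other motifs searched on both strands, AGTTCA (the second half-site form, in 13.99% of promoters) was in none of the 3 windows. TATAAA (in 13.62%, and 2 or more times in 2.36%) was in the Hoxb8 window 2 times. CCAAT (in 37.41%, and 2 or more times in 11.7%) was in the Hoxb1 window 2 times and in the Hoxb8 window 1 time. No match overlapped another.

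The 3' part of the cluster was high by Day2, after 8 h of RA. From ES to Day2, 8 of the 10 genes were at least 2-fold higher, against 8.82% of the 18315 genes with a value, and none was 2-fold lower. Those genes include 2452 without a fold, because the detected side was not above the level set for the undetected one, which were counted as unchanged, and without them the share is 10.2%. The median change over the 10 genes, 4 of them at a lower bound, was 4.45 log2 units, beside -0.01 over all genes with a fold. For Hoxb1 to Hoxb5 the median was 6.66, and for Hoxb6 to Hoxb9 it was 2.10, each with 2 values at a lower bound set by the ES floor. In the second group these were Hoxb8 (at least 0.46) and Hoxb9 (at least 2.17), which read 3.28 and 4.62 with no filter on dim probes, so the size of the gap between the groups depends on the floor.

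**Figure D1:**
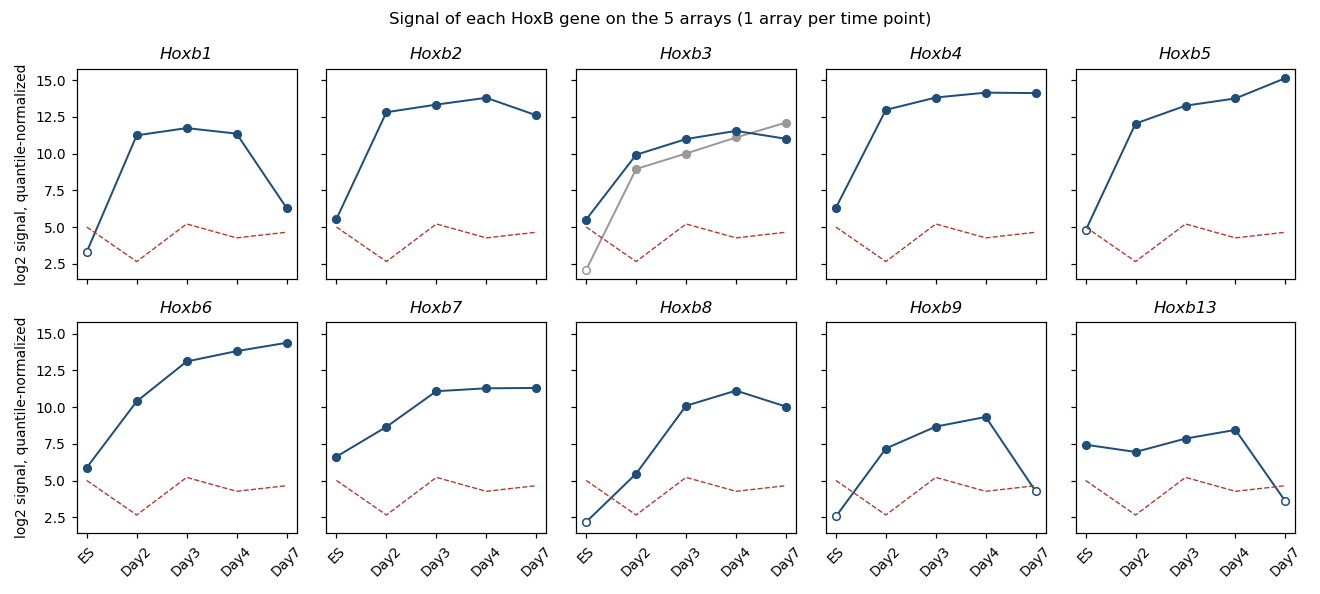
Quantile-normalized log2 signal (vertical axis) of each HoxB gene on the 5 arrays (horizontal axis), with 1 array per time point and no error bars. Filled points were well above background, open points were not, the dashed line is the floor of each array and the grey line is the dimmer Hoxb3 probe; Hoxb1 to Hoxb6 make their first large step by Day2 (at least 75.3-fold for Hoxb1, 22.7-fold for Hoxb6), while Hoxb1, Hoxb9 and Hoxb13 drop on Day7.

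Hoxb1, needed for the identity of a single hindbrain segment and a direct RA target, read 3.32 on ES without detection and then, from Day2 to Day7, 11.25, 11.74, 11.36 and 6.31. It was at least 75.3-fold higher on Day2 than on ES, stayed near that level for 2 more days after normalization, and was 33.1-fold lower on Day7 than on Day4. Without normalization the signal went from 3041.3 on Day2 to 1505.5 on Day4, so that the peak came on Day2 and the first 2-fold loss on Day4. Its Day7 level was still detected, at least 2.47-fold above ES, but the difference was under 2-fold with the normexp background correction (0.70 log2 units) and had no value with the floor set at the ERCC control probes, which match no mouse RNA. The ES to Day2 bound, 6.24 log2 units, moved to 4.67 with the floor at those probes and to 4.72 with normexp. On the unnormalized scale the Hoxb1 spots read 2839.9 to 3203.1 on Day2 and 2544.7 to 2796.2 on Day3, then 1411.1 to 1558.1 on Day4 and 86.8 to 110.7 at the end. The ES spots, at 7.6 to 16.0, were all below detection. These are spots of 1 probe on single arrays, so gaps between their ranges do not measure the spread between cultures or arrays.

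**Figure D2:**
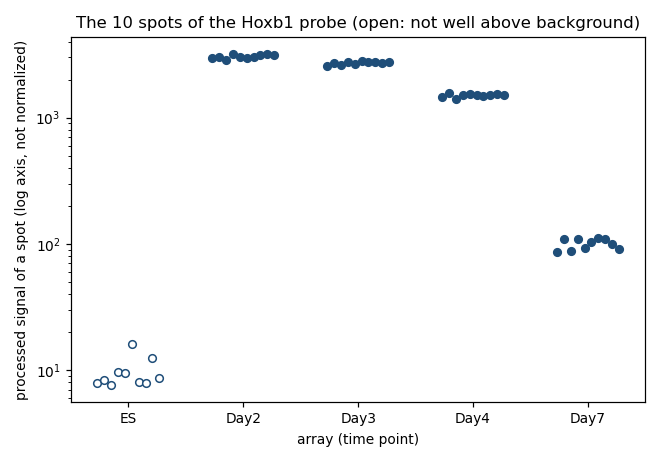
Processed signal before normalization (vertical axis, log scale) of the 10 spots of the Hoxb1 probe on each array (horizontal axis). Filled points were well above background and open points were not. Spots within an array lie close together (SD 0.04 log2 units on Day4 and 0.14 on Day7). The Day7 spots, at 86.8 to 110.7, lie apart from both the ES and the Day4 spots, on a scale that is not matched between arrays.

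Hoxb2, which acts beside Hoxb1 in the hindbrain, read 5.56 on ES, 12.82, 13.34 and 13.80 on the 3 embryoid body arrays and 12.61 on Day7. Its rise to Day2 was 153-fold (7.26 log2 units), or 5.91 log2 units with normexp. Hoxb5 and Hoxb1 have only bounds for this step, so the 3 genes have no settled order. From Day4 to Day7 Hoxb2 was 2.28-fold lower after normalization, but without normalization the signals were 7739 and 8139 and the difference was 0.07 log2 units the other way.

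Hoxb3 and Hoxb4, whose products mark the caudal hindbrain and the rostral cord, also switched on by Day2. The brighter Hoxb3 probe read 5.52, 9.92, 10.99, 11.55 and 11.01 from ES to Day7, a 21.2-fold rise to Day2. The dimmer probe read 2.10 without detection, 8.96, 10.01, 11.10 and 12.12. The 2 probes share the ES to Day4 course but part on Day7, where the brighter one was 0.54 log2 units below Day4 and the dimmer one 1.01 above it, so Hoxb3 has no settled direction for that step. Hoxb4 read 6.32, 12.98, 13.82, 14.15 and 14.12, which is 101-fold up by Day2 and a change of -0.03 log2 units between Day4 and Day7, although without normalization Day7 lay 1.08 above Day4.

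Hoxb5, the paralog of the brachial and phrenic motor neuron gene Hoxa5, read 4.78 on ES without detection, then 12.05, 13.26, 13.76 and 15.13 on the later arrays. It was at least 131-fold above ES on Day2 (7.04 log2 units) and at least 1117-fold above it on Day7 (10.13), bounds that move with the floor, to 5.47 and 8.56 log2 units with the floor at the ERCC probes and 5.56 and 8.83 with normexp. On Day7 it was 2.60-fold higher than on Day4, where 17.8% of all genes were at least 2-fold higher, and no other member passed 2-fold by its brightest probe after normalization. Without normalization Hoxb4, Hoxb6 and Hoxb7 passed too, but the share of all genes raised at that step was not computed on that scale. The Day2 level of Hoxb5 was 11.8% of its Day7 level, compared with 71.0% of peak for Hoxb1 on the same array.

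Hoxb6, a gene of the central cluster, read 5.88, 10.39, 13.10, 13.81 and 14.37 from ES to Day7. It was 22.7-fold higher by Day2, 6.56-fold higher again by Day3 and highest on Day7, at 359-fold over ES. Hoxb7 read 6.63, 8.66, 11.08, 11.28 and 11.30, a smaller start of 4.07-fold by Day2, 5.36-fold more by Day3, and 0.02 log2 units between Day4 and Day7, where the difference without normalization was 1.29. In both genes the step from Day2 to Day3 was larger than in any of Hoxb1 to Hoxb5.

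Hoxb8, used along the thoracic and brachial cord, read 2.19 on ES without detection, 5.47 on Day2, and 10.09, 11.12 and 10.03 on the arrays after it. The Day2 array detected it, but at 1.99% of its peak after quantile normalization, and the ES floor lets the ES to Day2 rise be stated only as at least 1.38-fold. With the floor at the ERCC probes (7.39 on Day2) Hoxb8 did not count as detected on Day2. From Day2 to Day3 it was 24.6-fold higher (4.62 log2 units), the largest step of the cluster there, but the size depends on the scaling of the Day2 array, with 3.58 log2 units under a 75th percentile shift and 2.84 without normalization. By the 2-fold rule its onset is Day3, and Day2 under 6 of 12 alternative settings. On Day7 it was 2.12-fold below Day4, a difference that was just under 2-fold with normexp and turned to 0.23 log2 units above without normalization.

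Hoxb9, a thoracic gene, read 2.56 on ES and 4.28 on Day7, both without detection, and 7.18, 8.67 and 9.33 in between. It was at least 4.51-fold above ES on Day2, highest on Day4, and at least 25.5-fold lower on Day7. ES and Day7 were both below detection, so no fold is given between them. Hoxb13, at the far 5' end and known from tail and prostate, read 7.44, 6.95, 7.86, 8.45 and, without detection, 3.60. It was already detected on ES at an unnormalized signal of 183.7 and did not change by 2-fold until Day4, at 2.01-fold, a call lost without normalization, with the normexp background correction, and when Day7 was left out of the normalization. On Day7 it was at least 13.9-fold below Day4 and at least 6.91-fold below ES. Of the 9 members with a value, Hoxb13 alone was lower on Day7 than on ES.

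**Figure D3:**
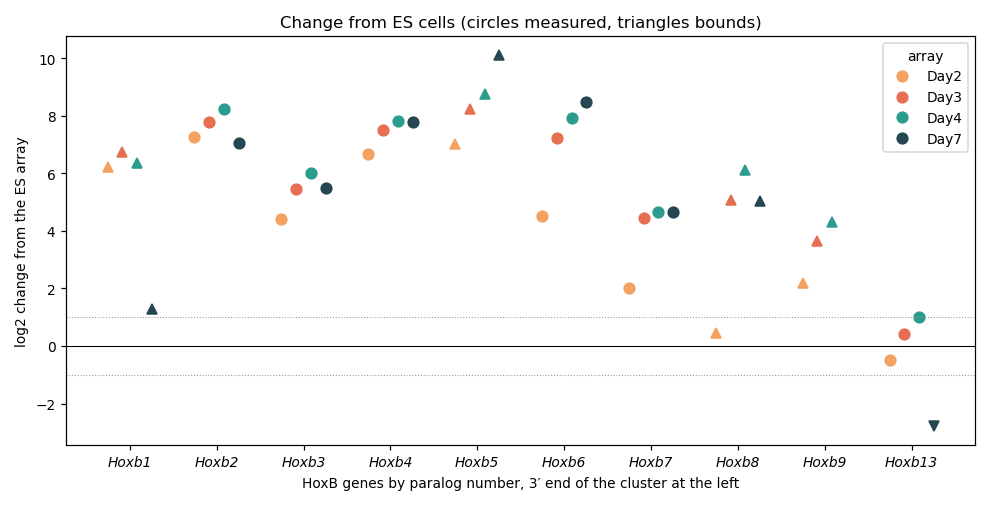
Log2 change from the ES array (vertical axis) for each HoxB gene in cluster order (horizontal axis), on Day2, Day3, Day4 and Day7. Circles are measured changes, upward triangles are lower bounds for a rise and the downward triangle is a bound for a fall, with dotted lines at 2-fold; the Day2 points are 6.24 or more at Hoxb1, 0.46 or more at Hoxb8, 2.17 or more at Hoxb9 and -0.49 at Hoxb13, and the Hoxb5 and Hoxb6 points climb through Day7.

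The step from Day2 to Day3 was largest in Hoxb6 to Hoxb8. Both this step and the one before it use the same Day2 array. Between Day2 and Day3, 6 of the 10 genes were at least 2-fold higher, beside 13.0% of all genes. These were Hoxb3 (2.10-fold), Hoxb5 (2.32-fold), Hoxb6, Hoxb7, Hoxb8 and Hoxb9 (2.81-fold), so all 4 of Hoxb6 to Hoxb9 and 2 of Hoxb1 to Hoxb5. The medians were 2.57 and 0.84 log2 units. Hoxb13, the most 5' member, changed by 0.91 log2 units, and by -0.51 without normalization. The Hoxb9 step was under 2-fold with a 75th percentile shift (0.94 log2 units) and without normalization (0.20). The share of peak reached on Day2 did not follow the gene order throughout. It was 44.4% for Hoxb4 but 32.4% for Hoxb3, 16.0% for Hoxb7 but 6.32% for Hoxb6, and 22.6% for Hoxb9 and 35.4% for Hoxb13 but 1.99% for Hoxb8. Without normalization Hoxb6, Hoxb7 and Hoxb8 passed the rule at this step, beside 1.39% of all genes, and the signals of Hoxb1, Hoxb2 and Hoxb13 were lower on Day3 than on Day2.

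**Figure D4:**
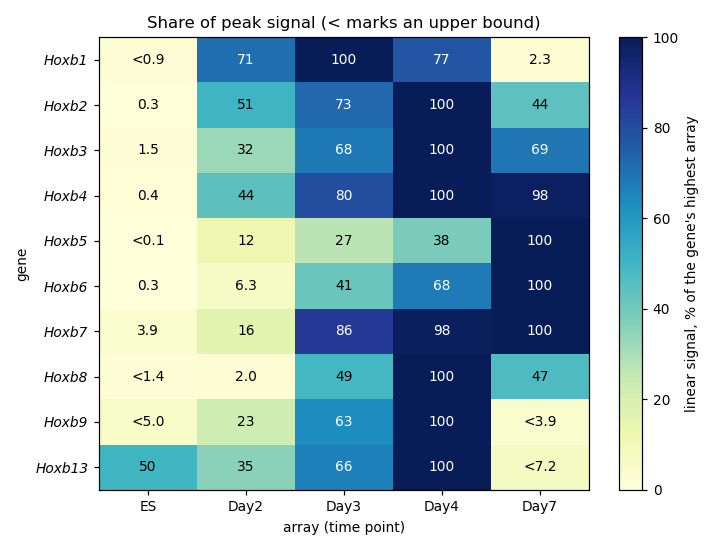
Linear normalized signal of each HoxB gene (rows, cluster order) on each array (columns) as a percentage of that gene's highest detected array, with < marking an upper bound where the probe was undetected. On Day2 the share is 71.0% for Hoxb1 and 1.99% for Hoxb8, and Hoxb5, Hoxb6 and Hoxb7 reach 100% on Day7.

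Compared with ES, 9 of 10 members were at least 2-fold higher on Day3 (14.2% of all genes) and 10 of 10 on Day4 (15.4%), with medians of 6.10 and 6.23 beside 0.06 and 0.01 over all genes. On Day7 the count was 8 of the 9 with a value, against 23.2%, with a median of 5.49 beside -0.07. From Day4 to Day7, 5 of 10 were at least 2-fold lower, where 18.1% of all genes were. They were Hoxb1, Hoxb2, Hoxb8, Hoxb9 and Hoxb13, members from both ends of the cluster. Without normalization the count was 3, beside 3.33% of all genes, and Hoxb2 and Hoxb8 were not among them. By the brightest probe after normalization the peak came on Day3 for Hoxb1, on Day4 for Hoxb2, Hoxb3, Hoxb4, Hoxb8, Hoxb9 and Hoxb13, and on Day7 for Hoxb5, Hoxb6 and Hoxb7. Hoxb4 (-0.03 log2 units) and Hoxb7 (0.02) hardly differed between Day4 and Day7, which gives no order, and the other Hoxb3 probe peaked on Day7. Without normalization the peak moved to Day2 for Hoxb1, Hoxb2 and Hoxb13 and to Day7 for Hoxb3, Hoxb4 and Hoxb8. The Day7 peaks of Hoxb5 and Hoxb6 and the Day4 peak of Hoxb9 were the same under all 12 alternatives over the 5 arrays.

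The Day2 array stood apart from the others. It called 86.7% of probes well above background, compared with 57.5% to 65.7% elsewhere, and 64.6% of the ERCC control probes, compared with 4.17% to 9.38%, and its median SD between spots was the widest (0.103 against 0.0517 to 0.0587). The part of this in the Day2 values was not tested. When the other arrays were normalized without Day2, the counts stayed at 9 for ES to Day3, 10 for ES to Day4, 8 for ES to Day7 and 5 for Day4 to Day7. Day7 was the 1 array on a second slide, so its changes cannot be told apart from those of the slide.

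The other clusters were read by the same rules. From ES to Day2, 8 of 9 HoxA genes, 3 of 6 HoxC genes and 0 of 5 HoxD genes with a fold were at least 2-fold higher, with medians of 2.21, 2.35 and 0.27 log2 units, beside 8 of 10 and 4.45 for HoxB. Each of the other clusters had 3 values at a bound. The HoxA count included Hoxa13 and the HoxC count Hoxc10, each detected on Day2 alone. On Day3 the counts were 6 of 8 for HoxA, 3 of 6 for HoxC and 4 of 6 for HoxD, and on Day7 they were 5 of 8, 3 of 5 and 3 of 5. No test of a difference between clusters is possible with 1 array per time point.

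**Figure D5:**
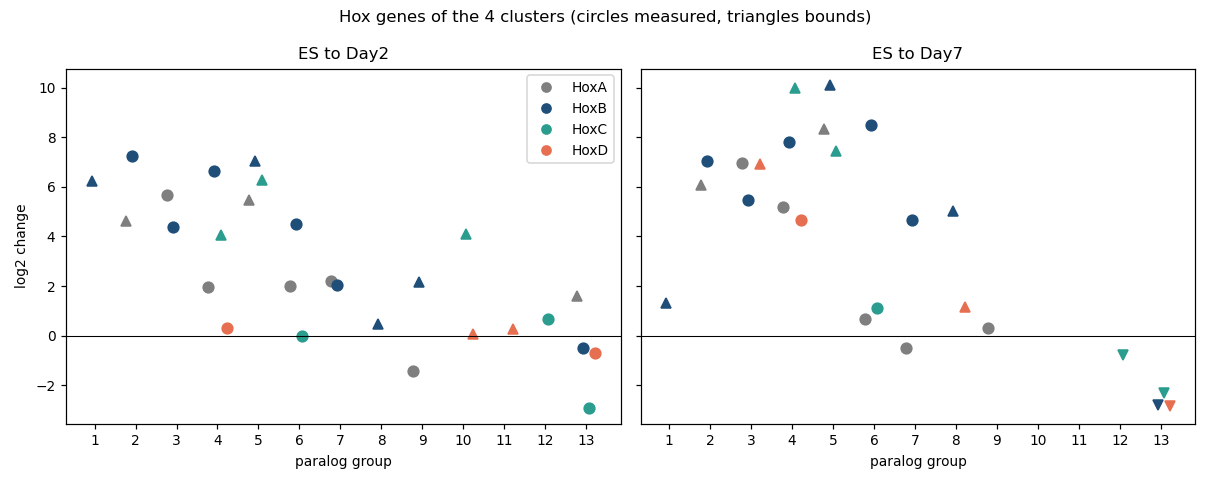
Log2 change from ES to Day2 (left) and from ES to Day7 (right) for Hox genes of the 4 clusters (colours) by paralog group (horizontal axis); circles are measured, triangles are bounds, and genes without a fold are left out, with group 1 drawn for HoxB alone. On Day2 the HoxB points of groups 1 to 6 lie above all HoxD points, which lie between -0.71 and 0.32.

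Paralogs of 1 number shared some of these courses and not others. In group 1, Hoxd1 was at 5.31 on Day2, at least 1.23-fold above ES, and 7.51 on Day3, while Hoxb1 was at least 75.3-fold above ES on Day2. In group 4, Hoxb4 was 101-fold up by Day2, Hoxa4 3.89-fold, Hoxc4 at least 16.5-fold and Hoxd4 1.25-fold, and the last then reached 13.27 on Day4. In group 5, Hoxa5 was up by 43.9-fold or more by Day2 and Hoxc5 by 78.0-fold or more, and both were highest on Day7, as Hoxb5 was. In group 6, Hoxa6 was up 3.98-fold on Day2 only and Hoxc6 was first 2-fold higher on Day4, while Hoxb6 climbed to Day7. In group 8, Hoxc8 was first 2-fold above ES on Day4, at 6.47, and below detection on Day7, and Hoxd8 was first 2-fold above ES on Day3 (at least 4.85-fold), the array on which Hoxb8 was at least 33.9-fold above. In group 9, Hoxc9 and Hoxd9 were both highest on Day4 and below detection on Day7, like Hoxb9, and Hoxa9 was detected on every array at 5.46 to 7.20. In group 13, Hoxa13 was detected on Day2 alone, at 6.62, below the 7.39 of the floor at the ERCC probes. Hoxc13 and Hoxd13 were detected on ES and, like Hoxb13, below detection on Day7.

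The genes whose courses lay nearest were found among 18633 genes by the root mean square (RMS) difference of mean-centred levels over the 5 arrays. Nearest to Hoxb1 were Serpinf1 (0.96 log2 units), BC048679 (0.96) and Cyp26a1 (0.97), the RA-degrading enzyme. Hoxb2 lay nearest to Hoxb4 (0.47), then Hoxa3 (0.70) and Zfp703 (0.71). Hoxb3 lay nearest to Hoxa2 (0.26), Rarb (0.34) and Meis2 (0.43), and Hoxb4 to Hoxa3 (0.41), Hoxb2 (0.47) and Hoxa5 (0.70). For Hoxb5 these were Hoxa5 (0.73), Hoxb4 (0.79) and Hoxb6 (0.85), and for Hoxb6 they were Hoxc4 (0.68), Hoxa5 (0.68) and Hoxb5 (0.85). The members of Hoxb2 to Hoxb6 thus had other Hox genes as their closest course. Hoxb7 was closest to Skap1 (0.23), Cd5 (0.24) and Tspan18 (0.31), Hoxb8 to Zbtb16 (0.34), Plat (0.40) and Zscan4c (0.52), and Hoxb9 to Pmp22 (0.37), Baiap2l1 (0.45) and Pax6 (0.46). Hoxb13 was closest to Ccn1 (0.07), Tmem51 (0.21) and Pilra (0.22).

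Of the 14 locus RNAs and neighbouring genes, 6 had a probe. Skap1, an adaptor of T cell signalling and the next protein-coding gene beyond Hoxb1, read 4.74 on ES without detection and then 7.36, 9.63, 9.37 and 9.45. Copz2, farther along that side in the RefSeq gene order, read 7.13, 8.27, 9.49, 9.61 and 8.35. These were the only neighbours at least 2-fold above ES on Day2, while Ttll6, beyond the Hoxb13 end, was lower there (8.93 to 6.86), and Snx11, Cbx1 and Nfe2l1 kept within 2-fold of ES throughout. Hoxb3os, Hoxb5os, Gm53, Mir10a, Mir196a-1, Prac1, Prac2 and Calcoco2 had no matched probe.

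Of 14 regulators of the cluster, 7 of the 13 with a value were at least 2-fold higher on Day2 than on ES and 1 was lower, with a median of 1.17 log2 units, beside 8.82% and 11.3% of all genes. Rarb, the RA receptor gene that is itself an RA target, went from 6.82 to 12.09 and stayed there to Day7 (12.42). Cyp26a1 went from 6.50 to 13.66, reached 15.40 on Day3, and was back at 8.09 on Day7, a fall that came on the same array as that of Hoxb1. Cdx1, an activator of central Hox genes, read 9.07, 13.82, 13.06, 11.45 and 8.26 from ES to Day7, while Cdx2 differed by -0.18 log2 units between ES and Day2 and Cdx4 was not detected. Crabp2 (1.54 log2 units), Rara (1.17), Kdm6b (1.49), an H3K27 demethylase, and Fgf8 (2.22) were also higher on Day2, and Rarg (0.13) and Gbx2 (0.85) were not past 2-fold. Egr2, which activates Hoxb2 in hindbrain segments, was lower (8.37 to 4.92). Gdf11 was first 2-fold higher on Day3.

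Of the 10 cofactor genes, 3 were at least 2-fold higher on Day2, beside 8.82% of all genes. They were Meis2 (8.09 to 12.79), Pbx2 (11.83 to 13.12) and Pknox2 (8.84 to 10.06). Meis1 (10.70 on Day2, 13.14 on Day3) and Meis3 (9.54 to 11.16) followed on Day3 and both were highest on Day7, and Pbx3 was first 2-fold higher on Day7 (14.52). Pbx4 and Pknox1 were within 2-fold of ES on every array. Gmnn, whose product binds Hox proteins, went from 13.28 on ES to 10.25 on Day7.

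Markers of the labelled stages were read against ES on Day7, where 23.2% of all genes were at least 2-fold higher and 24.4% lower. Pluripotency markers were at least 2-fold lower on Day7 than on ES for 5 of 6, Nanog (9.20 and 8.80) being the exception, and the 7 spinal motor neuron markers with a probe were all at least 2-fold higher, with a log2 of the summed signal of 10.48 on ES and 16.19 on Day7. Mnx1 had no matched probe. At least 2-fold higher on Day7 were also 4 of 6 neural progenitor markers, 4 of 5 neuronal markers and 4 of 5 hindbrain markers, while Pax6, Olig2 and Egr2 from these lists were lower. The summed signals of blood and mesoderm markers were highest on Day3 and Day4. The log2 of the summed signal of 4 blood markers was 8.40, 10.83, 12.92, 12.76 and 9.10 from ES to Day7. The embryonic globin genes Hbb-bh1 and Hba-x followed that course, while Spi1 was not detected and Gata1 was highest on ES. The 6 mesoderm markers summed to 9.39, 8.70, 10.75, 11.48 and 9.02, led by Meox1 and Foxc2, while T and Tbx6 were highest on ES and T was undetected from Day3. The 5 endoderm markers summed to 9.28 on ES, 12.46 on Day4 and 14.25 on Day7, led by Foxa2, also a floor plate gene, while Sox17, Gata4 and Gata6 were lower on Day7 than on Day4. The 4 glial markers summed to between 10.78 and 12.34, with Gfap undetected on ES and Day7. The part of these cells in the HoxB levels was not tested.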

How the data were processed

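Total RNA of 5 samples was labelled with Cy3 and hybridised to Agilent SurePrint G3 8x60K arrays, 1 per time point. The authors deposited spot intensity tables from Agilent Feature Extraction 10.5.1 and a table of log2 values, which equals the log2 processed signal minus a constant per array (0 probes off by 0.01 or more); its scale and centring are thereby known. Here log2 processed signals, without control and outlier spots, were averaged per probe and quantile-normalized (limma 3.58.1, R 4.3.3; Python 3.11.15, pandas 2.3.3). The legend of the study's expression heat map names quantile analysis. A probe was detected where the majority of its spots were well above background. Names came from RefSeq accessions (26300 of 55681 probes had 1 symbol). The brightest probe by mean stood for a gene, with the other given beside it. Onset was the first detected array at least 2-fold above ES, peak the highest detected array, loss the first later array 2-fold below peak. Named genes were all members, their paralogs, fixed lists, and the 3 nearest courses per member. Members and lists were chosen with earlier results of these data known. Alternatives changed scaling, background correction (normexp, offset 50), detection, floor, probe and fold (1.5 and 4). The code was tested on simulated data. Some genes of the lists are not reported here.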

Additional observations from a re-analysis of the deposited data

Results flagged for a closer look

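Of 17 probes without a gene symbol that the array annotation places on chromosome 11 of mm9 between 96111499 and 96176029, 3 are given here as signal outside the gene probes, from the 1 interval whose probes were all at least 2-fold above ES on every later array. All 3 belong to a forward-labelled interval at chr11:96175764-96176029 and were higher on Day2 than on ES, by 5.62 (A_30_P01019818), at least 4.92 (A_30_P01022855) and 4.55 (A_30_P01026003) log2 units. Their levels from ES to Day7 were 5.74, 11.36, 10.72, 11.97 and 10.74 for the first probe, 5.10 without detection, 10.02, 9.70, 10.93 and 8.88 for the second, and 6.24, 10.80, 10.42, 11.79 and 9.56 for the third. All 3 were highest on Day4. In the forward-labelled interval at chr11:96173788-96174352 the probes differed, with A_30_P01027852 at 3.17 on ES without detection, 6.36 on Day2 and 8.55 on Day4, A_30_P01019100 at 4.73 without detection, 6.52 and 7.28, and A_30_P01025215 at 7.16, 6.99 and 8.67. No mm9 annotation was used here, so the place of the interval relative to the HoxB genes was not determined.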

How the results depend on the processing

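The alternatives overlap in part, as the deposited values gave nearly the same levels as the 75th percentile shift. Among the members, the other choices of probe can change Hoxb3 alone. The onsets of Hoxb1 to Hoxb7 were Day2 under all 12 alternatives over the 5 arrays, and the counts kept within 1.5 times except as follows. Without normalization 3 genes were lowered from Day4 to Day7 (3.33% of all genes) and 3 raised from Day2 to Day3 (1.39%), and under a 4-fold rule these counts were also 3 and 3 (4.359% and 4.201%), where the 2-fold rule after normalization called 18.1% and 13.0%. With only genes detected on both arrays, the counts raised from ES were 5 (Day2), 5 (Day3), 6 (Day4) and 5 (Day7), and 3 were lowered from Day4 to Day7, which follows from the fewer genes left. Without normalization the Day4 to Day7 change reversed for Hoxb2 (0.073), Hoxb4 (1.08) and Hoxb8 (0.23), and with the second-brightest probe it did for Hoxb3 (1.01); the cause was not tested. Among single changes, 505 kept their side of the rule, 10 of them with the opposite sign but under 2-fold (such as Hoxb3 from Day4 to Day7, 0.74 without normalization), 14 dropped below it and 10 rose above it. The share of all genes raised from ES to Day2 was 8.82%, but 16.5% with a 75th percentile shift, 20.6% without normalization and 5.23% with normexp. Hoxb9 had its onset on Day3 with the floor at the ERCC probes, and Hoxb13 had none without normalization, with normexp, at 4-fold or with Day7 left out of the normalization. The alternatives without Day2, without Day7 and with an even split of a probe's spots taken as detected were chosen after seeing the data. A fit with slide as a block was not possible, and no replicate could be left out. No paired analysis was possible because no group had a second array.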
